A study of Sus scrofa with 20 samples.

Results

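Testis tissue of boars with high and low androstenone was compared across all genes with a name. The comparison took 10 of the 20 samples of the series, namely 5 testis samples of the high androstenone group and 5 of the low androstenone group, chosen by the tissue and the androstenone group in the sample labels. Of 21755 reference IDs, 18340 had at least 10 counts summed over the 10 testis samples and were tested, and 5691 of the tested IDs carried a gene symbol. The genes were read through 42 lists, of which 29 were pathways or gene families and 13 were markers of cell types, and 196 genes met a fixed rule for being named, from which those that carry the results are described singly. All boars of both groups were Duroc × F2 crosses with a labelled age of 116 days, which is an average over animals, where the F2 came from Leicoma × German Landrace F1 animals mated to Large White pigs. Boars were put into the high or the low group by the androstenone content of their fat, so the groups differ by a measured trait and share the cross, and neither carried an engineered allele or received an agent. Testis was frozen straight after slaughter. RNA of each boar gave 1 library, with no pooling, from full-length cDNA amplified before sequencing on 1 lane per sample. High boars 1 to 5 and low boars 1 to 5 are the replicate numbers of the labels.

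Androstenone is a steroid pheromone that Leydig cells of the boar testis make from pregnenolone, in a step that needs CYP17A1 and cytochrome b5. It leaves the testis through the blood, collects in fat and is one of the compounds behind boar taint. Leydig cells lie between the seminiferous tubules together with vessels, macrophages and lymphocytes. The tubules hold germ cells at all stages, Sertoli cells that nurse them, and a coat of contractile peritubular myoid cells. In whole tissue, fewer cells of a type and less RNA per cell cannot be told apart.

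The 10 testis libraries held 6161397 to 15975386 counts each, and the mean total was 10973067 in the low group and 10076271 in the high group (exact two-sided permutation p = 0.849). Values are given as counts per 1000000 (CPM), scaled by the TMM factors of edgeR, and 3 counts correspond to 0.188 to 0.487 CPM, which covers counting error only. Totals fell into 2 classes, with 12462278 to 15975386 counts in low boars 3, 4 and 5 and high boars 1 and 2, and 6161397 to 7250104 in the other 5. The tissue label held in every library, since median testis levels were 1787 CPM for the Leydig cell hormone INSL3, 371 CPM for CYP17A1, 100.0 CPM for the meiotic germ cell gene PIWIL1 and 971 CPM for the spermatid nuclear protein TNP1, while each had a median of at most 0.110 CPM in the livers of the series, and ALB, the main liver plasma protein, stood at 7.31 CPM in testis against 82590 CPM in liver. The libraries of low boar 2 and high boar 1 stood apart from the rest, with 18.2% and 17.6% of their counts in 10 reference IDs against 8.10% to 11.8% in the other 8. Their median correlation with the other 9 libraries was 0.961 and 0.971, against 0.975 to 0.981 for the rest. Several results below rest on either of these libraries, on low boar 3 (interferon genes) or on low boar 4 (hemoglobin). The main ones are given with and without the boar in question.

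No reference ID passed the adjusted p threshold of 0.05 with a fold change of at least 1.5 in the edgeR quasi-likelihood test (0 of 18340, 0%), and the smallest adjusted p was 0.236. At an unadjusted p under 0.05, called nominal from here on, 583 IDs (3.18%) were higher and 1158 IDs (6.31%) were lower in high androstenone testis. Higher IDs thus made up 33.5% of the nominal ones, and 43.9% in DESeq2, where 954 were higher and 1218 lower. Of the 5691 tested IDs with a symbol, from which the lists are drawn, 180 were nominally higher and 447 nominally lower. The lower share was thus larger among IDs with a symbol than over all IDs, which are the background given below. The 5 high samples all lay above the 5 low samples for 95 IDs (0.518%) and all lay below them for 234 IDs (1.28%). DESeq2 with its own size factors called 38 IDs higher (0.207%) and 82 IDs lower (0.447%) at both thresholds, and 48 of them carried a symbol, 13 higher and 35 lower, of which 7 are among the study's own differential genes. Every p given for a single gene below is unadjusted, and no gene had an adjusted edgeR p under 0.05. The median log2 fold change (high over low) was -0.02 over all tested IDs and -0.05 over those with a symbol, and the list medians below are to be read against these values.

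Among the enzymes that make and convert steroids, 6 of 22 tested genes were nominally higher and 2 were lower in high androstenone testis, against a background of 3.18% and 6.31%. The higher genes were HSD17B7, FDX1, HSD17B4, HSD17B2, SRD5A1 and CYP17A1, and the lower genes were HSD11B1L and HSD11B1. The list median was 0.17, and 0 of the 22 genes had groups that did not overlap in either direction. CYP17A1 (NM_214428.1), the lyase at the entry to androgens and androstenone, measured 160.5, 254, 353, 209.8 and 463 CPM in low androstenone boars 1 to 5 and 129.5, 706, 836, 573 and 365 CPM in high androstenone boars 1 to 5. High boars 2, 3 and 4 lay above every low boar, high boar 5 lay within the low range and high boar 1 lay below it (log2 fold change 0.86 ± 0.39 (SE), unadjusted edgeR p = 0.0453, exact permutation p = 0.23). Without high boar 1 the log2 fold change was 1.12. CYB5A, the cytochrome b5 that helps CYP17A1, measured 587, 1219, 1448, 876 and 1390 CPM in low androstenone boars 1 to 5 and 589, 2462, 2780, 1403 and 1408 CPM in high androstenone boars 1 to 5. The same boars 2 and 3 stood highest while high boars 1, 4 and 5 lay within the low range, and the difference was not nominal (log2 fold change 0.65 ± 0.35 (SE), unadjusted edgeR p = 0.0845, exact permutation p = 0.294).

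HSD17B7 (NM_001185137.1), which acts in cholesterol synthesis and on oestrone, measured 6.02, 5.22, 4.2, 5.99 and 7.14 CPM in low androstenone boars 1 to 5 and 3.35, 14.5, 11.96, 16.8 and 13.3 CPM in high androstenone boars 1 to 5. High boars 2 to 5 were all above the low group and high boar 1 was below it (log2 fold change 1.06 ± 0.33 (SE), unadjusted edgeR p = 0.00569, exact permutation p = 0.0635), with a log2 fold change of 1.32 without high boar 1. FDX1, the ferredoxin that carries electrons to mitochondrial steroid enzymes, stood at 45.5, 34.03, 29.8, 30.1 and 45.2 CPM in the low group and 46.8, 58.7, 55.6, 41.2 and 62.1 CPM in the high group, so that 4 high boars lay at or above 46.8 CPM while the low group ended at 45.5 CPM (log2 fold change 0.52 ± 0.18 (SE), unadjusted edgeR p = 0.0127, exact permutation p = 0.0318). HSD17B4, a peroxisomal enzyme of fatty acid and steroid breakdown, stood at 170.0, 162, 276, 149 and 177 CPM in the low group and 188, 419, 346, 241 and 225 CPM in the high group, and the groups overlapped through low boar 3 (log2 fold change 0.60 ± 0.23 (SE), unadjusted edgeR p = 0.0214, exact permutation p = 0.0714). In the opposite direction, HSD11B1L, a relative of the enzyme that reactivates glucocorticoids, stood at 16.9, 24.5, 13.5, 16.5 and 14.6 CPM in the low group and 7.14, 11.5, 12.1, 13.6 and 9.11 CPM in the high group, and only high boar 4 reached the low range, at 13.6 CPM against 13.5 CPM in low boar 3 (log2 fold change -0.69 ± 0.22 (SE), unadjusted edgeR p = 0.00658, exact permutation p = 0.0159). HSD3B1, the dehydrogenase upstream of androgens, stood at 2.38, 6.72, 4.94, 5.44 and 5.56 CPM in the low group and 1.26, 8.67, 3.99, 2.52 and 2.54 CPM in the high group and showed no nominal difference (log2 fold change -0.36 ± 0.42 (SE), unadjusted edgeR p = 0.4, exact permutation p = 0.286). The summed CPM of the 22 genes was 1279, 2136, 2677, 1674 and 2879 in the low group and 1261, 4561, 4752, 2747 and 2691 in the high group, with the 2 highest sums in high boars 2 and 3 and the lowest in high boar 1. Leaving out 1 boar gave between 2 (without high boar 3) and 7 (without high boar 1) nominally higher genes, and 3 without high boar 2 or low boar 4.

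SULT2A1, the sulfotransferase that conjugates hydroxysteroids and one of only 2 tested genes of the conjugation list, measured 23.1, 55.8, 74.5, 61.5 and 88.4 CPM in low androstenone boars 1 to 5 and 28.1, 178, 192, 108 and 87.2 CPM in high androstenone boars 1 to 5. High boars 2, 3 and 4 lay above the low group, high boar 5 just inside it and high boar 1 near its lower end (log2 fold change 0.96 ± 0.41 (SE), unadjusted edgeR p = 0.0342, exact permutation p = 0.191). The other gene, SUMF2, had a log2 fold change of 0.37 and was not nominal. Of 19 receptors for steroids and gonadotrophins, 0 were higher and 2 were lower, the orphan nuclear receptor NR2F2 (-0.66 ± 0.22, SE) and NR0B1, a repressor of genes of steroid synthesis (-0.89 ± 0.35, SE). LHCGR, the receptor through which luteinising hormone drives Leydig cells, stood at 15.7, 5.82, 12.2, 5.44 and 10.3 CPM in the low group and 14.7, 9.26, 9.17, 15.1 and 7.9 CPM in the high group and was not nominal (log2 fold change 0.18 ± 0.30 (SE), unadjusted edgeR p = 0.542, exact permutation p = 0.5).

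Leydig cell markers did not move together. Of 9 tested markers 2 were nominally higher, CYP17A1 and FDX1, and 1 was lower, with a list median of 0.18 that ranged from -0.03 to 0.25 when single boars were left out. INSL3, the insulin-like hormone made by Leydig cells, measured 819.8, 1811, 1667, 1702 and 4156 CPM in low androstenone boars 1 to 5 and 1005, 3954, 2859, 1738 and 2352 CPM in high androstenone boars 1 to 5. The groups overlapped almost completely, with the highest value in low boar 5 (log2 fold change 0.23 ± 0.39 (SE), unadjusted edgeR p = 0.564, exact permutation p = 0.611). IGF1, a growth factor of the interstitium that also belongs to the growth hormone list, was the lower marker and stood at 14, 21.6, 18.8, 23.7 and 33.9 CPM in the low group and 16.9, 13.3, 13.7, 9.25 and 17.4 CPM in the high group, where high boars 1 and 5 lay inside the low range and the other 3 below it (log2 fold change -0.67 ± 0.24 (SE), unadjusted edgeR p = 0.0126, exact permutation p = 0.0318). Summed over the 9 markers, CPM were 2444, 4322, 3647, 2997 and 6217 in the low group and 1894, 7390, 7033, 3870 and 4295 in the high group. STAR, CYP11A1 and HSD17B3 were not analysed here.

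Cholesterol is the raw material of all steroids and is both made in Leydig cells and taken up from lipoproteins. Among the 35 lists with at least 10 tested genes, cholesterol synthesis had the largest share of nominally higher genes, 4 of 12 (SC5D, MSMO1, SQLE and HSD17B7) with 0 lower, and its median log2 fold change was 0.44, between 0.35 and 0.56 when single boars were left out. MSMO1 is among the study's own differential genes, chosen on these samples, and 3 of the 4 remain without it. The number of nominally higher genes was 8 without high boar 1, 7 without both low boar 2 and high boar 1, and 4 or 5 without any other boar. Summed CPM were 1915, 1293, 2155, 2030 and 2095 in the low group and 1798, 2667, 2749, 2908 and 2371 in the high group, so high boars 2 to 5 all lay above the low group and high boar 1 did not. SQLE (NM_001101026.1), the squalene epoxidase that opens the sterol branch, measured 72.5, 55.2, 56.6, 70.7 and 56.98 CPM in low androstenone boars 1 to 5 and 100.4, 102, 74.3, 100.3 and 100.0 CPM in high androstenone boars 1 to 5. The groups did not overlap, the lowest high value being 74.3 CPM in boar 3 (log2 fold change 0.61 ± 0.16 (SE), unadjusted edgeR p = 0.00132, exact permutation p = 0.00794), and the adjusted p was 0.328 in edgeR and 0.00324 in DESeq2.

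SC5D (XM_003129944.1), the desaturase that forms the last but one sterol of the pathway, measured 16.2, 24.5, 17.7, 20.2 and 16.5 CPM in low androstenone boars 1 to 5 and 21.9, 50.1, 57.6, 30.9 and 38.3 CPM in high androstenone boars 1 to 5. All high boars but boar 1 exceeded the low group (log2 fold change 1.06 ± 0.24 (SE), unadjusted edgeR p = 0.000465, exact permutation p = 0.0159, DESeq2 adjusted p = 0.00453). MSMO1, the methylsterol oxidase of the same pathway, stood at 39.8, 62.5, 61.8, 57.9 and 85.7 CPM in the low group and 47.9, 277, 317, 138 and 179 CPM in the high group, with the same order of boars, boar 1 of the high group being within the low range (log2 fold change 1.64 ± 0.37 (SE), unadjusted edgeR p = 0.000501, exact permutation p = 0.0397). The remaining 9 genes had log2 fold changes from -0.20 (PMVK) to 1.06 (HSD17B7).

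Cholesterol uptake, storage and transport gave 1 higher and 1 lower gene of 16. SCARB1 (NM_213967.1), the receptor through which steroid-making cells take cholesterol from high-density lipoprotein, measured 15.4, 16.1, 16.7, 16.9 and 32.7 CPM in low androstenone boars 1 to 5 and 17.3, 43.6, 38.7, 36.7 and 32.1 CPM in high androstenone boars 1 to 5. High boars 2, 3 and 4 were above the whole low group, and the overlap came from low boar 5 alone (log2 fold change 0.78 ± 0.26 (SE), unadjusted edgeR p = 0.00972, exact permutation p = 0.0238), with a log2 fold change of 1.07 without low boar 5. FABP3 (NM_001099931.1), a carrier of fatty acids, measured 31.2, 44.3, 28.7, 36.96 and 42.6 CPM in low androstenone boars 1 to 5 and 17.03, 22.2, 22.1, 15.8 and 18.2 CPM in high androstenone boars 1 to 5. No high boar reached the low range (log2 fold change -0.94 ± 0.18 (SE), unadjusted edgeR p = 8.87e-05, exact permutation p = 0.00794), the exact p being the smallest that 5 against 5 samples allow, and the adjusted p was 0.236 in edgeR and 0.000386 in DESeq2. RDH11, a short-chain dehydrogenase that reduces retinal, was the only higher gene among 14 of retinoid handling and stood at 91.6, 140.2, 165, 116 and 138 CPM in the low group and 137, 361, 338, 180.0 and 195 CPM in the high group, with high boars 2 to 5 above the low group and high boar 1 inside it (log2 fold change 0.90 ± 0.26 (SE), unadjusted edgeR p = 0.00324, exact permutation p = 0.0318). RBP5, which binds retinol inside cells, was lower (RBP5 -1.23 ± 0.51, SE).

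Cytochrome P450 enzymes of fatty acids and foreign compounds had 3 higher and 1 lower gene of 15, and all 4 are among the study's own differential genes, so that 0 of the other 11 were nominal. CYP4B1 stood at 1.82, 2.84, 10.8, 10.5 and 43.3 CPM in the low group and 5.13, 85.7, 96.2, 97.9 and 28.2 CPM in the high group, a spread of more than 10-fold within each group, and low boar 5 lay above high boars 1 and 5 (log2 fold change 2.15 ± 0.76 (SE), unadjusted edgeR p = 0.0122, exact permutation p = 0.0635). Without low boar 5 its log2 fold change was 3.22. CYP2B22 had 0 counts in high boars 1 and 3 and at most 0.402 CPM in the others, against 0.353 to 1.66 CPM in the low group (log2 fold change -2.42 ± 0.65, SE, a value that depends on the prior count). Among flavin monooxygenases and other detoxifying enzymes 1 of 15 was lower, and among antioxidant and glutathione enzymes 2 of 19 were lower, MGST3 (MGST3 -0.52 ± 0.16, SE) and PRDX6 (PRDX6 -0.49 ± 0.19, SE).

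**Figure D1:**
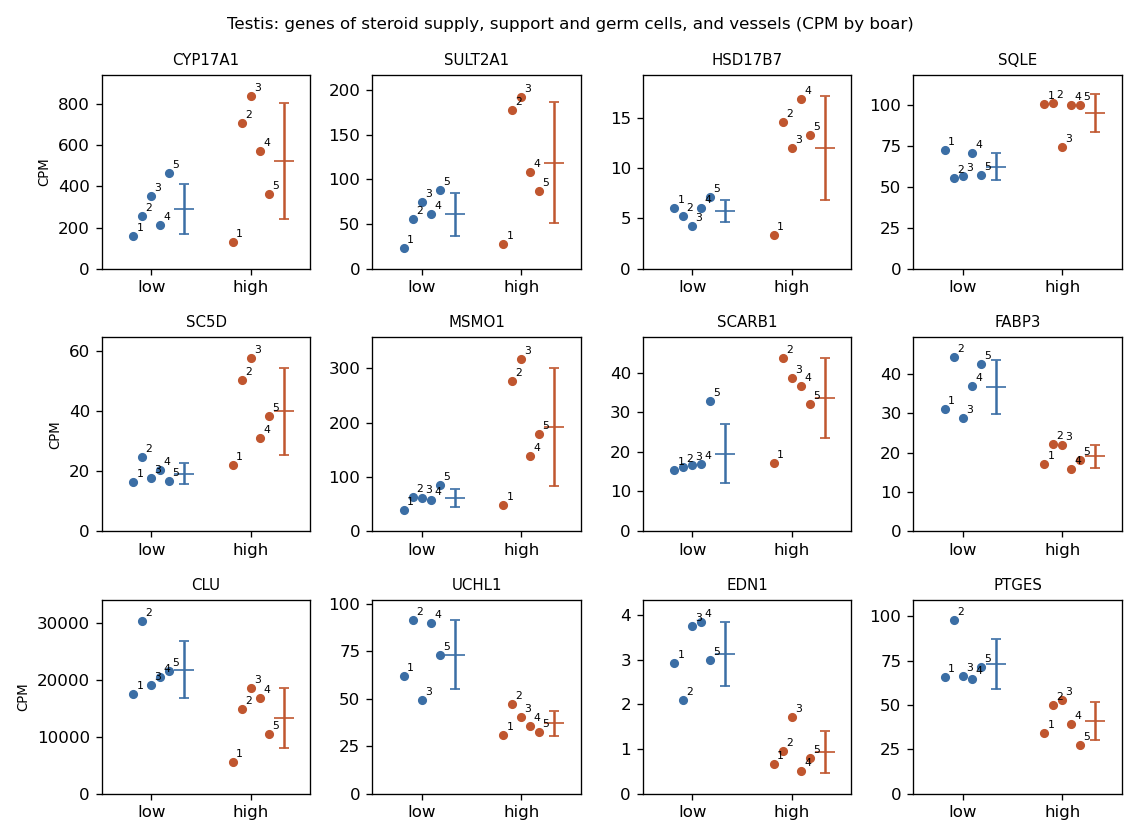
CPM of 12 testis genes by boar, in low (blue) and high (orange) androstenone groups, points numbered by boar 1 to 5, with horizontal marks for the group mean and bars for 1 SD (n = 5). High boar 1 lies in or below the low range for CYP17A1, SULT2A1, HSD17B7, SC5D, MSMO1 and SCARB1, while the groups do not overlap for SQLE, FABP3, UCHL1, EDN1 and PTGES.

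Ribosomal proteins, which build the subunits of the ribosome, had the largest share of nominally lower genes among the lists with at least 10 tested genes. Of 44 tested genes 28 were lower and 0 were higher, where 6.31% of all IDs were lower, and 9 of the 44 had all high boars below all low boars, against 1.28% of all IDs. The median log2 fold change was -0.49, between -0.57 and -0.34 over the fits without single boars, and 17 (without high boar 4) to 32 (without low boar 3) genes stayed nominally lower. Without low boar 2 there were 20, and without both low boar 2 and high boar 1 there were 25 with a median of -0.37. RPL6 measured 1471, 2587, 1322, 1590 and 1539 CPM in low androstenone boars 1 to 5 and 1030, 1171, 1215, 932 and 1128 CPM in high androstenone boars 1 to 5. Low boar 2 was far above its group, and all high boars were below all low boars (log2 fold change -0.64 ± 0.20 (SE), unadjusted edgeR p = 0.00618, exact permutation p = 0.00794), and the log2 fold change was -0.42 without low boar 2.

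RPS27A, a ribosomal protein made as a fusion with ubiquitin, stood at 440.4, 663, 374, 454 and 621 CPM in the low group and 337, 359, 341, 258 and 363 CPM in the high group, without overlap (log2 fold change -0.62 ± 0.19 (SE), unadjusted edgeR p = 0.00453, exact permutation p = 0.00794). RPS25 stood at 259, 330.3, 177, 231 and 265 CPM in the low group and 195, 151, 149, 129 and 176 CPM in the high group, and its overlap came from low boar 3 alone, at 177 CPM (log2 fold change -0.66 ± 0.18 (SE), unadjusted edgeR p = 0.00268, exact permutation p = 0.0159, DESeq2 adjusted p = 0.0497). These differences were less than 2-fold in each gene. RPLP0, the stalk protein often used as a reference gene, had no nominal difference and stood at 6225, 5972, 7345, 6265 and 9533 CPM in the low group and 5957, 6618, 7318, 7749 and 5320 CPM in the high group (log2 fold change -0.10 ± 0.20 (SE), unadjusted edgeR p = 0.629, exact permutation p = 0.603). Summed CPM of the 44 genes were 46910, 65500, 46100, 49930 and 62920 in the low group and 42680, 43630, 43380, 38400 and 42020 in the high group, so all 5 low sums lay above all 5 high sums. Ribosomal protein genes have many near-identical copies in mammalian genomes, and how the counting divided reads among such copies is not given in the sources used here.

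Mitochondrial respiratory chain and ATP synthase subunits were nearer the background, with 5 lower and 0 higher of 42 and a median of -0.17, and 3 were lower without low boar 1 or high boar 3 and 9 without low boar 3. NDUFA4, a subunit of the respiratory chain, stood at 65.4, 102, 49.3, 72.02 and 69.1 CPM in the low group and 46.2, 55.9, 47.9, 33.1 and 51.7 CPM in the high group (log2 fold change -0.60 ± 0.20 (SE), unadjusted edgeR p = 0.00882, exact permutation p = 0.0238), and ATP5G1, COX6B and NDUFA12 were lower by similar amounts (-0.57, -0.51 and -0.46). SLC25A4, which exchanges ADP and ATP across the inner mitochondrial membrane, measured 223, 305, 157, 231 and 208 CPM in low androstenone boars 1 to 5 and 85.2, 125, 165, 147 and 122 CPM in high androstenone boars 1 to 5. High boar 3 was the only high boar in the low range (log2 fold change -0.80 ± 0.20 (SE), unadjusted edgeR p = 0.00134, exact permutation p = 0.0159, DESeq2 adjusted p = 0.0352). Its relative SLC25A5 was also nominally lower (SLC25A5 -0.50 ± 0.21, SE). Of all 115 solute carriers 3 were higher and 7 were lower, near the shares over all IDs (3.18% and 6.31%), with a median of 0.05. Without low boar 2 only 3 were lower, and without low boar 1 there were 7 higher. For proteasome subunits 0 of 18 were nominal in either direction (median -0.09).

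**Figure D2:**
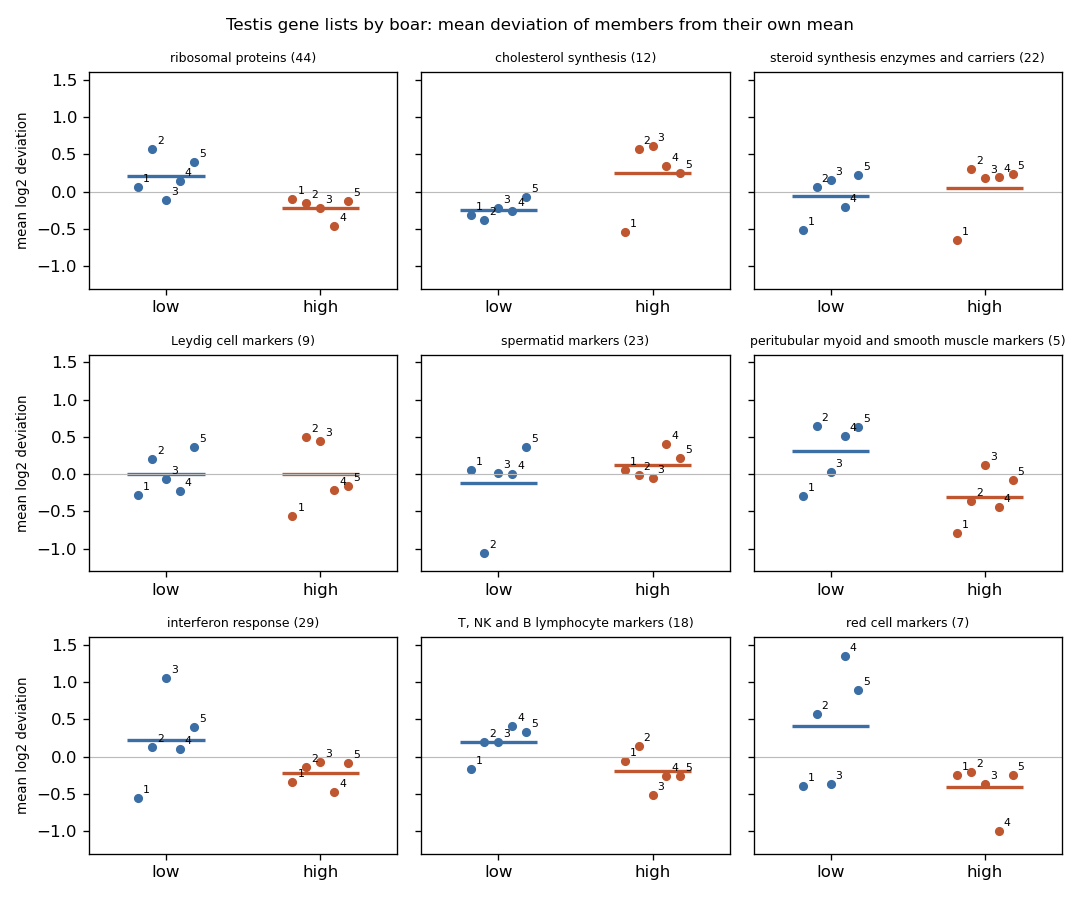
Mean log2 deviation of the members of 9 gene lists from their own mean over the 10 testis libraries, 1 point per boar (numbered 1 to 5) in the low (blue) and high (orange) androstenone groups, with a bar for the group mean and the number of tested genes in brackets. Low boar 2 stands lowest for spermatid markers, low boar 3 highest for interferon genes, low boar 4 highest for red cell markers, and high boar 1 lowest for the steroid and cholesterol lists.

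Genes of the interferon response had 15 of 29 members nominally lower and 0 higher in high androstenone testis, with a median of -0.67. The lower ones include MX1, MX2, IFIT2 and RSAD2, which are among the study's own differential genes, and 11 remain without these 4. Summed CPM were 123, 179, 452, 185 and 233 in the low group and 125, 145, 159, 119 and 163 in the high group, the value of low boar 3 being the highest of all and that of low boar 1 lying among the high group. Without low boar 3 the count was 5 and the median -0.33. With the depth class as a covariate it was 9, as it was with the replicate number as a block. MX1, an antiviral GTPase, stood at 4.06, 9.11, 81.5, 13.5 and 11.9 CPM in the low group and 5.802, 6.71, 12.1, 5.55 and 8.57 CPM in the high group, where low boar 3 decided the difference (-1.66 with that boar and -0.33 without it, on the log2 scale). RSAD2, an antiviral enzyme, had a log2 fold change that reversed without low boar 3, from -2.14 to 0.19.

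EIF2AK2 (NM_214319.1), the kinase that halts translation on double-stranded RNA, measured 7.14, 11.2, 18.3, 11.3 and 9.17 CPM in low androstenone boars 1 to 5 and 6.99, 5.58, 6.65, 3.196 and 6.56 CPM in high androstenone boars 1 to 5. It was the only interferon gene whose groups did not overlap (log2 fold change -0.97 ± 0.27 (SE), unadjusted edgeR p = 0.00239, exact permutation p = 0.00794), its log2 fold change was -0.73 without low boar 3, and its adjusted p was 0.0468 in DESeq2. IRF9, a subunit of the transcription factor that interferon activates, stood at 5.18, 9.702, 20.3, 10.1 and 13.2 CPM in the low group and 4.83, 6.53, 8.37, 6.73 and 5.89 CPM in the high group, with low boar 1 inside the high range (log2 fold change -0.88 ± 0.30 (SE), unadjusted edgeR p = 0.00956, exact permutation p = 0.0714). Further nominally lower members were CXCL9 (-0.97), CXCL10 (-1.12), IRF1 (-0.86), IFITM1 (-1.11) and GBP1 (-0.67).

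Antigen presentation by MHC class I had 2 lower genes of 17 and a median of -0.50, and the count was 7 without low boar 1, 5 without high boar 2 and 4 without low boar 2, and 1 with both low boar 2 and high boar 1 left out. The 2 lower genes were PSME1 and PSME2, which form the proteasome activator used for antigen processing. SLA-3, a class I heavy chain, entered the list through 1 ID and was not nominal (SLA-3 -0.50 ± 0.34, SE). Another SLA-3 ID is among the study's own differential genes, as lower, and was not a member of this list. PSME1 stood at 154, 269, 224, 198 and 206 CPM in the low group and 97.6, 169, 163, 122 and 148 CPM in the high group (log2 fold change -0.59 ± 0.19 (SE), unadjusted edgeR p = 0.00735, exact permutation p = 0.0238). B2M, the light chain of class I molecules, stood at 19.3, 46.6, 57.4, 57.99 and 84.4 CPM in the low group and 29.7, 46.9, 36.2, 22.9 and 40.4 CPM in the high group and was not nominal (log2 fold change -0.59 ± 0.30 (SE), unadjusted edgeR p = 0.066, exact permutation p = 0.254). In MHC class II, 1 of 11 genes was lower, SLA-DRB1, with values from 48.5 to 318 CPM in the low group and from 47.6 to 119 CPM in the high group (log2 fold change -0.98 ± 0.37 (SE), unadjusted edgeR p = 0.0194, exact permutation p = 0.135). There were 4 lower class II genes without low boar 1, 2 without high boar 3, and 0 without low boar 5, without high boar 1 or with the depth class as a covariate. The pig class I and II genes resemble each other closely, and their counts are uncertain for that reason.

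Lymphocyte markers had 6 of 18 genes lower and 1 higher, with a median of -0.86, between -0.93 and -0.71 without single boars, and 4 were lower without high boar 1. CD3E (NM_214227.1), a chain of the T cell receptor complex, measured 4.06, 2.39, 4.26, 4.57 and 5.03 CPM in low androstenone boars 1 to 5 and 1.12, 2.08, 0.665, 1.68 and 1.88 CPM in high androstenone boars 1 to 5. All high boars were below all low boars (log2 fold change -1.45 ± 0.31 (SE), unadjusted edgeR p = 0.000296, exact permutation p = 0.00794), and the adjusted p was 0.32 in edgeR and 0.00324 in DESeq2. CD3G, of the same complex, was at or under 3 counts in the high group and reached 1.24 CPM in low boar 5. PTPRC, the common leukocyte phosphatase, stood at 4.201, 8.36, 6.49, 8.904 and 6.62 CPM in the low group and 4.98, 4.096, 4.12, 2.52 and 3.62 CPM in the high group, and low boar 1 alone lay in the high range (log2 fold change -0.82 ± 0.25 (SE), unadjusted edgeR p = 0.00475, exact permutation p = 0.0159). CD2, a T cell adhesion molecule, did not follow, as it stood at 2.1, 3.73, 5.13, 4.49 and 2.73 CPM in the low group and 2.98, 3.502, 1.73, 4.04 and 2.01 CPM in the high group (log2 fold change -0.36 ± 0.30 (SE), unadjusted edgeR p = 0.247, exact permutation p = 0.302). CD5 (-2.29) and CD244, a receptor of natural killer cells and the 1 higher marker (2.12), are among the study's own differential genes, and 5 lower markers and 0 higher remain without them. Both CD3E and PTPRC stood below 10 CPM in every library.

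Among 44 chemokines, interleukins and their receptors 9 were lower and 0 higher, with 8 left outside the study's own list, and the median was -0.25. CCL19, which guides T cells and dendritic cells, stood at 3.501, 4.03, 2.903, 7.96 and 9.26 CPM in the low group and 2.01, 2.73, 3.32, 1.85 and 2.54 CPM in the high group, with low boars 4 and 5 highest and high boar 3 inside the low range (log2 fold change -1.16 ± 0.34 (SE), unadjusted edgeR p = 0.00368, exact permutation p = 0.0159). CCL5, a chemokine of T cells and macrophages, stood at 2.24, 3.13, 1.92, 3.78 and 2.82 CPM in the low group and 1.12, 0.772, 0.930, 1.18 and 2.54 CPM in the high group, and the high group lay below the low group but for boar 5 (log2 fold change -1.12 ± 0.34 (SE), unadjusted edgeR p = 0.00515, exact permutation p = 0.0238). CXCR3, IL2RG, IL16, IL18, IFNGR1 and CCL2 were lower, with log2 fold changes from -0.64 (IFNGR1) to -1.98 (CXCR3), the latter at under 1 CPM in every library. Macrophage markers had 3 of 11 genes lower, CSF1R, FCER1G and AIF1, and a median of -0.52. CSF1R, the receptor for the growth factor of macrophages, stood at 1.26, 3.88, 4.32, 4.73 and 5.998 CPM in the low group and 2.16, 2.02, 3.19, 1.51 and 3.08 CPM in the high group (log2 fold change -0.78 ± 0.34 (SE), unadjusted edgeR p = 0.0368, exact permutation p = 0.167). None of the 11 were nominal with the depth class as a covariate, without low boars 3, 4 or 5, or without high boars 2 or 4, whereas 6 were lower without low boar 1, so the macrophage count moved both ways with single libraries.

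**Figure D3:**
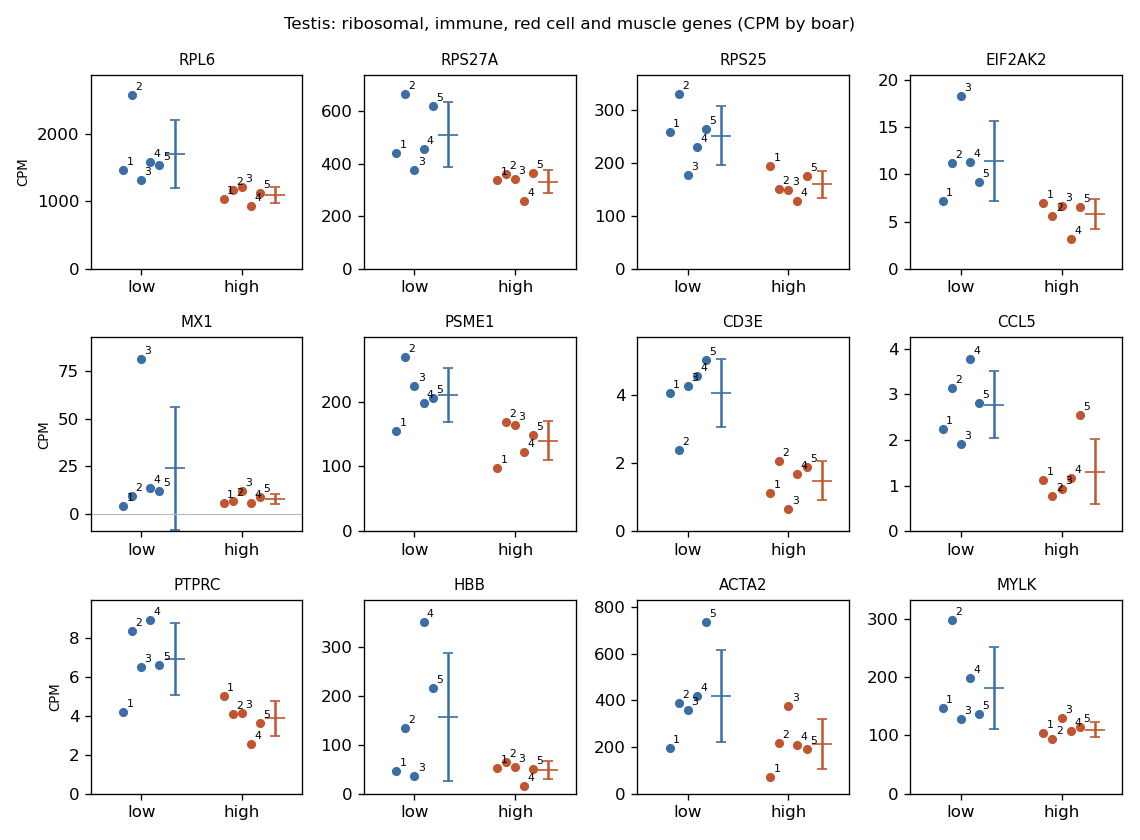
CPM of 12 testis genes by boar, in low (blue) and high (orange) androstenone groups, points numbered by boar 1 to 5, with horizontal marks for the group mean and bars for 1 SD (n = 5). MX1 stands out in low boar 3 (81.5 CPM) and HBB in low boar 4 (352 CPM), whereas the groups do not overlap for RPL6, RPS27A, EIF2AK2 and CD3E.

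Blood vessel genes held the gene with the smallest p of all IDs with a symbol. EDN1 (NM_213882.1), the vasoconstrictor peptide endothelin, stood at 2.94, 2.09, 3.77, 3.86 and 2.999 CPM in the low group and 0.669, 0.950, 1.73, 0.505 and 0.803 CPM in the high group, a level of at most a few CPM with all high boars below all low boars (log2 fold change -1.76 ± 0.33 (SE), unadjusted edgeR p = 6.90e-05, exact permutation p = 0.00794). EDN1 is among the study's own differential genes. Its receptors EDNRA and EDNRB were not nominal (EDNRA -0.27 ± 0.26 and EDNRB -0.08 ± 0.45, SE). PTGES (NM_001038631.1), the synthase of prostaglandin E, measured 65.8, 97.9, 66.5, 64.5 and 71.7 CPM in low androstenone boars 1 to 5 and 34.4, 49.9, 53.04, 39.4 and 27.6 CPM in high androstenone boars 1 to 5. The highest high boar, at 53.0 CPM, was below the lowest low boar, at 64.5 CPM (log2 fold change -0.84 ± 0.20 (SE), unadjusted edgeR p = 0.000738, exact permutation p = 0.00794), the log2 fold change was -0.70 without low boar 2, and the adjusted p was 0.0145 in DESeq2. TBXAS1, the thromboxane synthase, stood at 56.1, 77.8, 19.9, 34.3 and 38.5 CPM in the low group and 20.6, 26.1, 21, 24.7 and 26.9 CPM in the high group, and the low group reached down to the high group in boar 3 (log2 fold change -0.92 ± 0.28 (SE), unadjusted edgeR p = 0.0051, exact permutation p = 0.0556). Without low boar 2 the log2 fold change of TBXAS1 was -0.62. In the whole list 4 of 21 genes were lower and 1 was higher, with a median of -0.09. The fourth lower gene, NPPB, had counts in low boar 4 only, and ADM, the higher one, stood under 1 CPM in every library.

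Endothelial markers had 1 lower gene of 7, ENG (ENG -0.82 ± 0.36, SE), and a median of -0.44, and PECAM1 and KDR were not nominal (PECAM1 -0.35 ± 0.32 and KDR -0.04 ± 0.25, SE). Red cell markers had 5 of 7 lower and a median of -1.74. HBB, HBA2, HBD and HBM, which code for hemoglobin chains, are among the study's own differential genes and were measured on these samples, which leaves 1 lower gene. HBB stood at 45.9, 134, 35.6, 352 and 217 CPM in the low group and 51.9, 65.2, 54.4, 16.5 and 51.02 CPM in the high group, so low boars 2, 4 and 5 stood above all others and low boars 1 and 3 lay below the high median (log2 fold change -1.71 ± 0.52 (SE), unadjusted edgeR p = 0.00482, exact permutation p = 0.119). Without low boar 4 the log2 fold change was -1.17 for HBB and -1.25 for HBA2 (-1.96 with that boar), and the list median was -1.25 with 5 genes still nominally lower. Without the hemoglobin genes, the median of the other tested red cell markers was 0.07. Hemoglobin IDs with several near-identical copies, such as HBA2, are uncertain in their counts.

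The matrix and its proteases had 7 lower and 2 higher of 34 genes, with a median of -0.36. Of the 2 higher genes, ADAMTS4 (1.98) is among the study's own differential genes, and its log2 fold change was 0.52 without high boar 3. COL11A1, a fibrillar collagen chain, stood at 3.78, 8.36, 4.51, 12.3 and 1.85 CPM in the low group and 2.46, 3.38, 2.39, 1.85 and 2.68 CPM in the high group, high in low boars 2 and 4 (log2 fold change -1.24 ± 0.41 (SE), unadjusted edgeR p = 0.0078, exact permutation p = 0.0714). FBLN1, a glycoprotein of elastic fibres, stood at 21.3, 40.1, 22.1, 32.5 and 26.6 CPM in the low group and 12.4, 16.6, 26.6, 11.4 and 19.4 CPM in the high group, and high boar 3 lay inside the low range (log2 fold change -0.72 ± 0.25 (SE), unadjusted edgeR p = 0.0104, exact permutation p = 0.0397). MMP11, FMOD, SPP1, BGN and TIMP1 were also lower, with log2 fold changes from -0.54 (BGN) to -1.12 (SPP1), and MMP13, a collagenase, was higher at 1.16 ± 0.389 CPM (SD, n = 5) in the low group and 2.05 ± 0.436 CPM (SD, n = 5) in the high group (log2 fold change 0.84 ± 0.31 (SE), unadjusted edgeR p = 0.0157, exact permutation p = 0.0159). The count of lower genes ranged from 4 without low boar 4 or 5 to 13 without high boar 3, and it was 1 without both low boar 2 and high boar 1.

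Peritubular myoid and smooth muscle markers had 3 of 5 genes lower, ACTA2, MYLK and TPM2, and a median of -0.72. ACTA2, the smooth muscle actin, measured 197, 388, 358, 419.6 and 738 CPM in low androstenone boars 1 to 5 and 69.5, 217, 375, 208 and 192 CPM in high androstenone boars 1 to 5. Low boar 5 was highest and high boar 1 lowest, and low boar 1 and high boar 3 overlapped with the other group (log2 fold change -0.99 ± 0.37 (SE), unadjusted edgeR p = 0.0176, exact permutation p = 0.0794). MYLK, the kinase that starts smooth muscle contraction, stood at 148, 298, 128, 199 and 137 CPM in the low group and 104, 93.7, 129.9, 108 and 114 CPM in the high group, and only high boar 3 reached the low range (log2 fold change -0.73 ± 0.22 (SE), unadjusted edgeR p = 0.0048, exact permutation p = 0.0159), and the log2 fold change was -0.47 without low boar 2. Summed CPM of the 5 markers were 440, 855, 622, 828 and 1048 in the low group and 286, 417, 650, 401 and 446 in the high group. With both low boar 2 and high boar 1 left out, 2 genes were lower and the median was -0.45. Smooth muscle of vessel walls and the coat of the tubules share these genes, and the share of each was not tested.

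Complement and coagulation genes were split, with 3 higher (C9, F9 and F5) and 4 lower (SERPING1, C4A, CFP and CLU) of 38 and a median of -0.03. Without low boar 2 there were 1 higher and 2 lower, without high boar 1 there were 2 higher and 1 lower, and without both there were 1 higher and 2 lower. The lower count was also 2 without low boar 5, high boar 4 or high boar 5, and the higher count 1 without low boar 5 or high boar 2. SERPING1, the inhibitor of the first complement component, stood at 103, 222, 225, 226 and 241 CPM in the low group and 56.4, 135, 183, 103 and 129 CPM in the high group (log2 fold change -0.75 ± 0.28 (SE), unadjusted edgeR p = 0.0173, exact permutation p = 0.0794). C9, of the membrane attack complex, stood at 0.980, 2.24, 1.79, 1.81 and 2.56 CPM in the low group and 2.901, 5.34, 3.32, 3.53 and 2.01 CPM in the high group, with high boar 5 inside the low range (log2 fold change 0.87 ± 0.31 (SE), unadjusted edgeR p = 0.0125, exact permutation p = 0.0238). CLU, known as clusterin and secreted in bulk by Sertoli cells, measured 17460, 30410, 19170, 20610 and 21610 CPM in low androstenone boars 1 to 5 and 5611, 14980, 18600, 16850 and 10410 CPM in high androstenone boars 1 to 5. All high boars but boar 3 lay below the low group (log2 fold change -0.72 ± 0.30 (SE), unadjusted edgeR p = 0.0299, exact permutation p = 0.0159), which leaves 1 pair of overlapping boars.

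Sertoli cell markers had 3 of 12 genes lower, CLU, NR0B1 and AMHR2, with a median of -0.31, and 1 was lower without low boar 2. AMHR2 is among the study's own differential genes. AMH, the hormone of immature Sertoli cells, stood at 5.32, 14.2, 6.05, 8.67 and 10.5 CPM in the low group and 8.93, 7.42, 9.97, 5.55 and 9.64 CPM in the high group with no nominal difference (log2 fold change -0.10 ± 0.27 (SE), unadjusted edgeR p = 0.722, exact permutation p = 0.849), and neither had SOX9 (SOX9 -0.38 ± 0.34, SE) or WT1 (WT1 -0.03 ± 0.27, SE). NR0B1 stood at 2.94, 1.94, 1.297, 2.36 and 2.38 CPM in the low group and 1.19, 1.48, 0.532, 0.673 and 1.74 CPM in the high group (log2 fold change -0.89 ± 0.35 (SE), unadjusted edgeR p = 0.0214, exact permutation p = 0.0318). FSHR and INHA were not analysed here.

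In the germ line the clearest value was that of UCHL1 (NM_213763.2), a ubiquitin hydrolase known in testis from spermatogonia. UCHL1 measured 61.8, 91.5, 49.2, 89.98 and 72.9 CPM in low androstenone boars 1 to 5 and 30.6, 46.9, 40.1, 35.3 and 32.3 CPM in high androstenone boars 1 to 5. No high boar reached the low group, whose lowest value was 49.2 CPM in boar 3 (log2 fold change -0.98 ± 0.20 (SE), unadjusted edgeR p = 0.00017, exact permutation p = 0.00794), and the adjusted p was 0.302 in edgeR and 0.00139 in DESeq2. The other spermatogonia marker that was lower was THY1, at under 1 CPM in every library (THY1 -1.77 ± 0.63, SE). KIT, the receptor of differentiating spermatogonia, did not share that pattern and stood at 13.9, 15.1, 10.2, 9.93 and 10.6 CPM in the low group and 10.2, 14.4, 17.4, 8.24 and 13.1 CPM in the high group (log2 fold change 0.10 ± 0.22 (SE), unadjusted edgeR p = 0.658, exact permutation p = 0.809). The median of the 9 spermatogonia markers was -0.55, and most of the others, such as LIN28A, POU5F1, SALL4, GFRA1 and ID4, were at or under 3 counts in many libraries.

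The listed markers of later germ cells showed no nominal difference in edgeR. Of 14 spermatocyte markers 0 were nominal in edgeR or DESeq2 (median 0.03), and of 23 spermatid markers 0 were nominal in edgeR (median 0.19) and 1 was higher in DESeq2. SYCP3, of the axis of meiotic chromosomes, stood at 582, 441, 451, 547 and 408 CPM in the low group and 661, 396, 524, 501 and 620.0 CPM in the high group (log2 fold change 0.15 ± 0.18 (SE), unadjusted edgeR p = 0.404, exact permutation p = 0.405). TNP1, a protein that replaces histones in spermatids, stood at 1260, 481, 958, 995 and 1998 CPM in the low group and 2077, 867, 822, 1003 and 906 CPM in the high group (log2 fold change -0.004 ± 0.34 (SE), unadjusted edgeR p = 0.991, exact permutation p = 0.96), and moved from -0.33 to 0.32 with the boar left out. Summed over the spermatid markers, CPM were 13820, 6019, 14570, 14120 and 18300 in the low group and 14340, 13370, 13700, 18910 and 14840 in the high group. Low boar 2 thus held less than 50% of the spermatid signal of any other low boar, and without it the median of the list was 0.02. PRM1, PRM2 and TNP2 were not analysed here.

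Genes of the sperm flagellum and cilia had 2 higher and 6 lower of 59 with a median of 0.09. The lower count fell to 3 without high boar 1, 3 or 5 and to 1 without both low boar 2 and high boar 1, and the higher count was 0 without high boar 4 or 5 and 4 without high boar 2. Of the lower ones, CCDC6, CCDC8, CCDC51, CCDC86 and TTC4 are coiled-coil or repeat proteins known from other parts of the cell. IFT22, a subunit of the transport complex of cilia, was higher and stood at 74.5, 77.8, 56.2, 62.1 and 107 CPM in the low group and 116, 63.3, 112, 129.5 and 134 CPM in the high group, with the groups overlapping through high boar 2 alone (log2 fold change 0.56 ± 0.22 (SE), unadjusted edgeR p = 0.0234, exact permutation p = 0.0714), and SPEF2, of the sperm tail, was the other (SPEF2 0.43 ± 0.19, SE). ODF1, ODF2 and TEKT1, structural proteins of the tail, were not nominal (0.38, 0.09 and 0.35). Of 19 genes of the sperm head and egg binding 1 was higher, DPY19L2, a protein of the sperm nuclear envelope, which stood at 207, 108, 216, 137 and 164 CPM in the low group and 188, 236, 244, 264 and 233 CPM in the high group (log2 fold change 0.48 ± 0.20 (SE), unadjusted edgeR p = 0.0249, exact permutation p = 0.0397). ACRV1, ZPBP and SPACA1 of the acrosome were not nominal (0.28, 0.19 and 0.15).

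**Figure D4:**
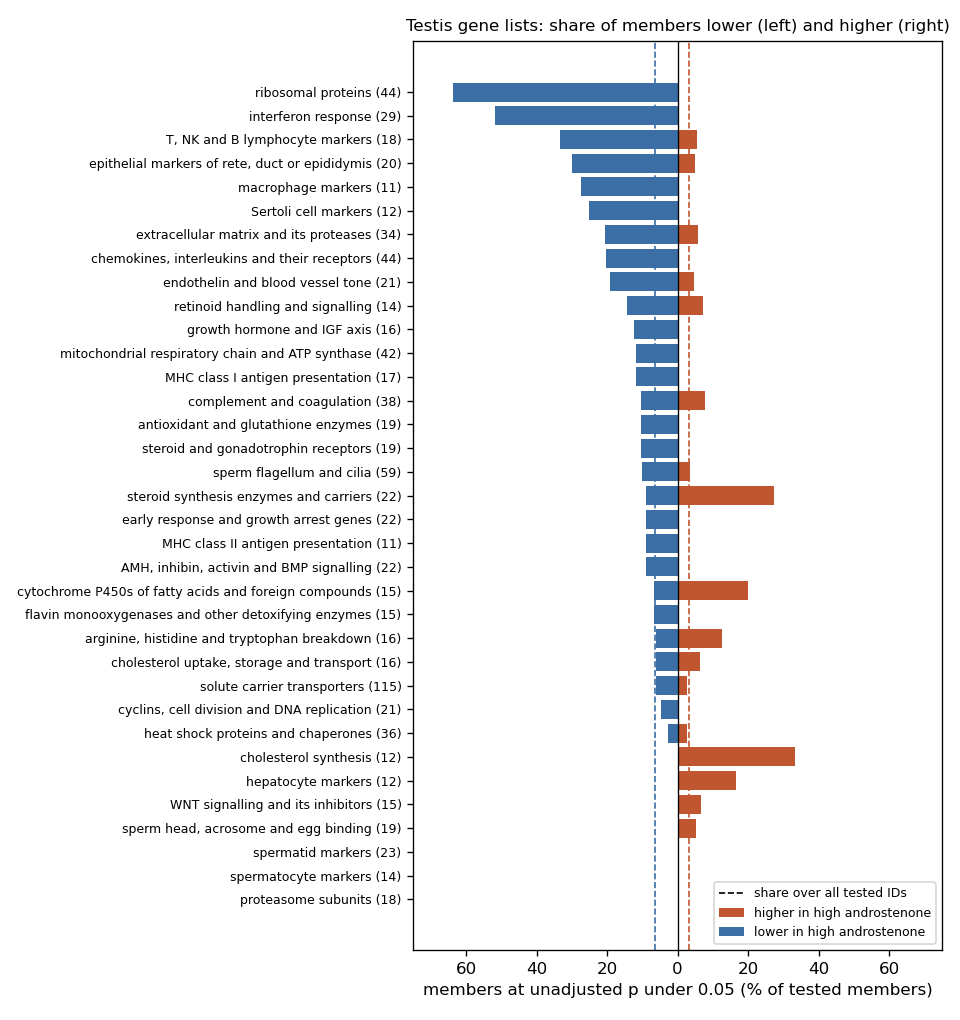
Share of tested members (in %) that were lower (blue, to the left) or higher (orange, to the right) in high androstenone testis at an unadjusted edgeR p under 0.05, for the 35 lists with at least 10 tested genes, whose number stands in brackets; dashed lines mark the shares over all IDs, 6.31% lower and 3.18% higher. Ribosomal proteins (28 of 44) and interferon genes (15 of 29) have the longest bars to the left, cholesterol synthesis (4 of 12) and steroid synthesis (6 of 22) the longest to the right.

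A further 7 lists held at most 2 nominal genes in either direction, where 3.18% of all IDs were higher and 6.31% lower. Heat shock proteins and chaperones had 1 higher gene, HSPA13 (0.37), and 1 lower gene, HSPE1 (-0.57), of 36. Cyclins and genes of cell division and DNA replication had 1 lower gene of 21, CCND2 (-0.63), and CDK1 was at -0.01 ± 0.16 (SE). Early response genes had 2 lower of 22, among them NFKBIA (-0.59). The AMH, inhibin, activin and BMP family had 2 lower of 22, the target gene ID2 (-0.88) and AMHR2 (-1.57). AMHR2 stood at 16.3 CPM in low boar 2, and its log2 fold change was -0.61 without that boar. WNT signalling had 1 higher of 15, the inhibitor DKK2 (2.88), which is among the study's own differential genes. DKK2 owed its size to high boar 5, since it was 1.42 without that boar. The growth hormone and IGF axis had 2 lower of 16, IGF1 and IGFBP7 (-0.63). Breakdown of arginine, histidine and tryptophan had 2 higher and 1 lower of 16, and all 3 (ARG2, HAL and HAAO) are among the study's own differential genes. The lower gene, HAAO, had a log2 fold change of -1.61, and of -0.89 without low boar 2.

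**Figure D5:**
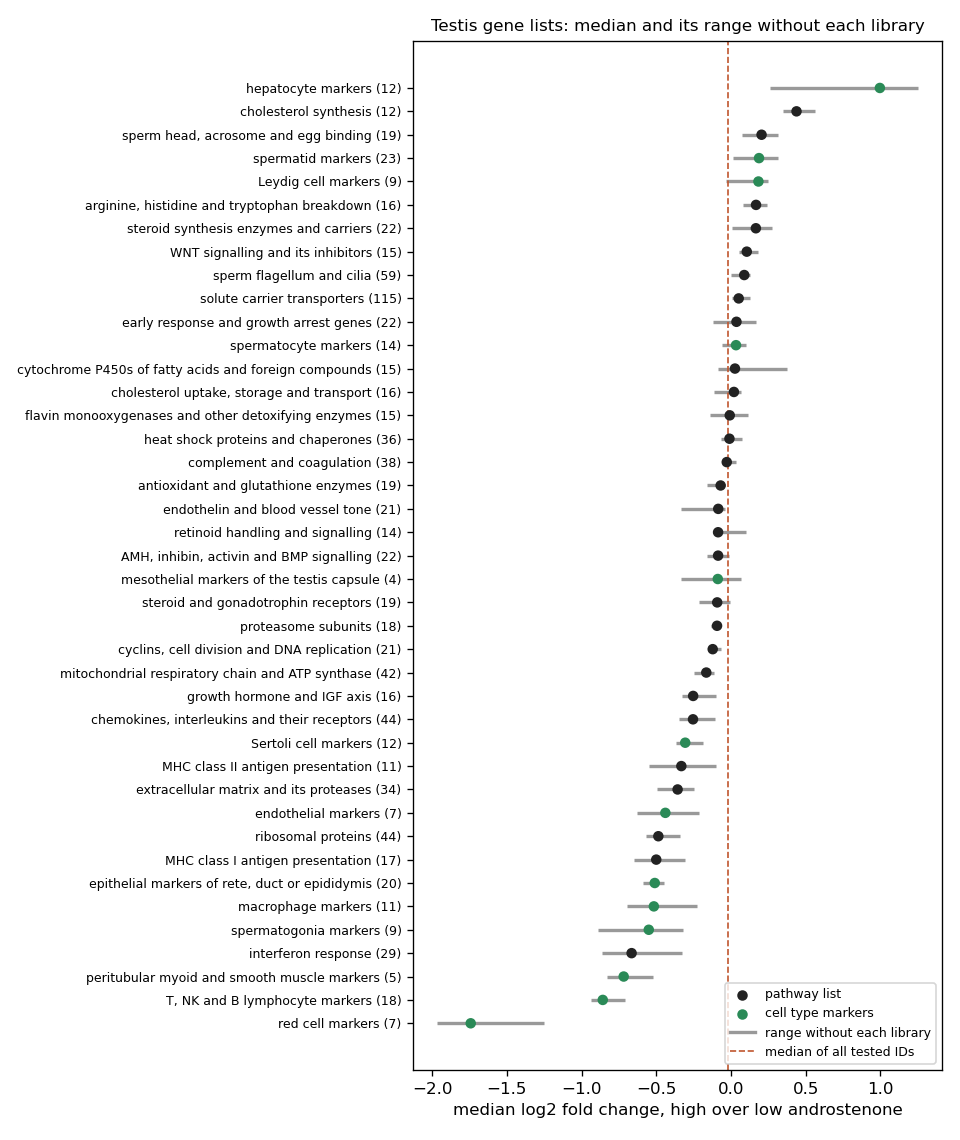
Median log2 fold change (high over low androstenone) of 41 testis gene lists with at least 4 tested genes, with the number of genes in brackets, black for pathways and green for cell type markers; grey bars span the medians when each of the 10 libraries is left out in turn and the dashed line is the median of all IDs (-0.02). Medians ran from -1.74 for red cell markers, of which 4 of 7 are the study's own differential genes, to 1.00 for hepatocyte markers, whose bar reaches down to 0.26.

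Over all 18340 tested IDs, 0.518% had all high boars above all low boars and 1.28% had all of them below. Of the 5691 tested IDs with a symbol, members of the lists included, 20 were nominally higher and 64 nominally lower with no overlap. These counts need a mean of at least 1 CPM in one group and leave out the study's own genes, and neither share exceeds that over all IDs. Among the higher ones, RNF128, a ubiquitin ligase known for restraining T cells, measured 6.86, 11.2, 8.28, 7.64 and 8.29 CPM in low androstenone boars 1 to 5 and 13.5, 18.2, 15.3, 12.1 and 15 CPM in high androstenone boars 1 to 5. ZDHHC23, a palmitoyltransferase, stood at 10.1, 5.67, 8.59, 9.38 and 7.67 CPM in the low group and 11.2, 14.4, 17.9, 12.3 and 13.1 CPM in the high group. NADK2, which makes NADP inside mitochondria, stood at 28.98, 31.9, 18.96, 31.4 and 27.2 CPM in the low group and 43.96, 40.9, 39.5, 34.1 and 47.1 CPM in the high group. The log2 fold changes were 0.82 ± 0.19, 0.73 ± 0.20 and 0.57 ± 0.17 (SE), with DESeq2 adjusted p of 0.00321, 0.0256 and 0.0391, and each of the 5 high boars lay above each low boar in all 3 genes.

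Among the lower ones, LOC100516302 was the most abundant of those named and measured 2782, 4763, 2252, 3002 and 3389 CPM in low androstenone boars 1 to 5 and 1362, 1599, 1800, 1637 and 1672 CPM in high androstenone boars 1 to 5. LOC100153899 stood at 35.1, 41.9, 30.8, 26.5 and 26.3 CPM in the low group and 10.9, 17.2, 20.6, 14.3 and 11.9 CPM in the high group. LOC100521666, a long noncoding RNA in the RefSeq gene table, stood at 20.3, 24.2, 17.1, 16.5 and 16.4 CPM in the low group and 8.26, 10.5, 7.44, 11.9 and 7.499 CPM in the high group. All 3 had no overlap, log2 fold changes of -1.004 ± 0.21, -1.10 ± 0.21 and -1.04 ± 0.20 (SE), and DESeq2 adjusted p of 0.00204, 0.000393 and 0.000386. TCF7L2, a transcription factor of the WNT pathway, stood at 2.94, 2.69, 2.53, 2.44 and 2.12 CPM in the low group and 1.56, 0.831, 0.930, 1.18 and 1.34 CPM in the high group (log2 fold change -1.11 ± 0.27 (SE), unadjusted edgeR p = 0.000951, exact permutation p = 0.00794). This TCF7L2 ID is not a member of the WNT list above, whose lowest log2 fold change was -0.54. EFNA4, a membrane-bound ligand of Eph receptors, stood at 1.54, 4.63, 3.03, 1.73 and 1.94 CPM in the low group and 0.818, 1.01, 1.196, 1.01 and 0.803 CPM in the high group (log2 fold change -1.39 ± 0.35 (SE), unadjusted edgeR p = 0.00107, exact permutation p = 0.00794).

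PNMT, which makes adrenaline from noradrenaline, had a smaller p than most of these but overlapped between high boar 3 and low boar 3, as it stood at 29.7, 45.2, 13.6, 20.6 and 35.6 CPM in the low group and 9.97, 12.7, 14.1, 11.9 and 10.98 CPM in the high group (log2 fold change -1.27 ± 0.27 (SE), unadjusted edgeR p = 0.000262, exact permutation p = 0.0159). AMY2B, one of the study's own differential genes and an amylase with close paralogs whose reads could not be told apart with certainty, stood at 0.840, 1.34, 1.79, 1.81 and 2.56 CPM in the low group and 5.36, 5.64, 7.44, 9.25 and 2.01 CPM in the high group (log2 fold change 1.77 ± 0.36 (SE), unadjusted edgeR p = 0.000198, exact permutation p = 0.0159).

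Markers of cells outside the testis were checked in the same way. Hepatocyte markers had 2 of 12 genes higher, AMBP and CYP2C33, and a median of 1.00. CYP2C33 is among the study's own differential genes, and 1 higher gene and a median of 0.79 remain without it. ALB measured 3.22, 4.78, 9.45, 10.7 and 0.706 CPM in low androstenone boars 1 to 5 and 43.7, 9.62, 15.2, 4.54 and 1.07 CPM in high androstenone boars 1 to 5. High boar 1 alone stood out, and the list median was 0.26 without it, with 1 gene higher, and 0.25 with 0 genes nominal without both low boar 2 and high boar 1. Epithelial markers of the rete, ducts or epididymis had 6 lower and 1 higher of 20 with a median of -0.51, and 2 lower and 0 higher without the study's own differential genes. CDH17, an adhesion protein of gut epithelium and one of these 2, stood at 0.840, 0.597, 50.4, 0.473 and 0.353 CPM in the low group and 1.12, 0.653, 0.399, 0.673 and 0.803 CPM in the high group, a level carried by low boar 3 alone, and its log2 fold change reversed from -3.84 to 0.45 without that boar. Of 4 mesothelial markers of the testis capsule 0 were nominal. Summed CPM of lymphocyte markers ran from 70.8 to 132 in the low group and from 87.5 to 154 in the high group, those of macrophage markers from 177 to 463 and from 209 to 356, and those of red cell markers from 83.5 to 627 and from 43.7 to 117. Most of the lymphocyte sum was CD247, with a testis median of 78.8 CPM against 10.1 CPM in liver. Most of the macrophage sum was SLA-DRA and FCGR1A, with testis medians of 135 and 108 CPM. These 2 sums therefore follow mainly those genes, and the content of each cell type was not tested. The median log2 fold changes of the lymphocyte, macrophage and red cell lists were negative, as were those of the interferon, chemokine and matrix lists. The part of such cells in those results was not tested.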

How the data were processed

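Raw counts per reference ID were analysed for 10 testis samples, 5 of high and 5 of low androstenone boars, each from 1 animal. The authors called bases with CASAVA 1.7, mapped the reads by BWA against Sscrofa 9.2 transcripts (RefSeq mRNA and UniGene), and deposited the counts without normalization. The submitters' notes also name SAMtools. How reads matching several sequences were counted, and whether strand was used, is not given in the sources used here. Each file held 21785 lines for 21755 IDs, because 10 IDs were repeated, and repeats were dropped. Symbols came from a RefSeq gene table of Sscrofa11.1 and from IDs that the study names, and matched 6692 IDs. Each list held 1 ID per symbol, the one with most counts over the 10 testis samples, so other IDs of the same gene are not in the list counts.

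The 18340 IDs with a sum of 10 counts or more were fitted with edgeR 4.0.16 in R 4.3.3 (TMM, glmQLFit and glmQLFTest, two-sided, Benjamini-Hochberg adjustment over all of them). A call needed a fold change of 1.5 or more together with an adjusted p under 0.05. For single genes an exact two-sided permutation test was run on log2(CPM + 0.5), which over 252 splits of 5 against 5 boars gives no p below 0.00794. All p-values measure the spread between these boars. The fit was tested on simulated data. Same-numbered boars of the groups were not treated as pairs, since the correlation of their deviations ran from -0.0438 to 0.212.

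Members and gene lists were chosen with earlier results of these data known. Genes were named when they led a list, were among the 4 smallest nominal p of a list, were among the 12 largest non-overlapping nominal differences per direction with at least 1 CPM outside the study's own differential genes, or had one of the 10 smallest p of genes with a symbol. Some genes that these rules name are not reported here. Lists are described by counts and medians, with no set test. Alternatives were DESeq2 1.42.0 (local fit), RLE factors, minimum sums of 1 and 100 counts, a likelihood ratio test with trended dispersion, a robust fit, a block for the replicate number, a term for libraries above 10000000 counts, removal of hemoglobin IDs, summed symbols, pseudocounts of 0.1 and 2, and leaving out each library. Leaving out low boar 2 and high boar 1 together was chosen after seeing the data. Tables and figures were made with Python 3.11.15, numpy 2.4.6, scipy 1.17.1, pandas 2.3.3 and matplotlib 3.10.9. No sequence or coordinate is printed, because the gene table follows another genome build than the counts.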

Additional observations from a re-analysis of the deposited data

Results flagged for a closer look

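In 232 groups of 5 values (genes described above and summed list levels, each group of boars taken alone), 18 held 1 boar whose gap to its nearest neighbour exceeded Dixon's 95% critical value of 0.710 of the range. Chance flags about 1 in 20 groups.

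Among single genes, the boar that stood apart was in the low group for HSD17B4 (boar 3, 276 CPM), SCARB1 (boar 5, 32.7 CPM), CYP4B1 (boar 5, 43.3 CPM), RPL6 (boar 2, 2587 CPM), MX1 (boar 3, 81.5 CPM), RSAD2 (boar 3, 20.4 CPM), PTGES (boar 2, 97.9 CPM) and CDH17 (boar 3, 50.4 CPM), each above the rest of its group, and for SERPING1 (boar 1, 103 CPM), below it. In the high group it was SQLE (boar 3, 74.3 CPM) and RPS27A (boar 4, 258 CPM), each below the rest, and CCL5 (boar 5, 2.54 CPM) and TNP1 (boar 1, 2077 CPM), each above.

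Among summed list levels, low boar 2 stood below its group for cholesterol synthesis (1293 CPM) and for the sperm flagellum and cilia (5845 CPM). High boar 4 stood below its group for the growth hormone and IGF axis (90.3 CPM) and above it for the sperm flagellum and cilia (13640 CPM) and for spermatid markers (18910 CPM). Low boars 2 and 3 account for 8 of the 18 values, and the libraries of low boar 2 and high boar 1 are those that stood apart in the share of their counts taken by a few IDs. The cause was not tested.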

How the results depend on the processing

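The count past both thresholds was 0 in edgeR and stayed 0 with RLE factors, either other minimum of counts, the robust fit, the replicate block, the depth covariate, without hemoglobin IDs and with summed symbols. It was 120 with DESeq2, 225 with the likelihood ratio test on the trended dispersion, and 0 to 2 without single boars (2 without low boar 5, both without a symbol). With low boar 2 and high boar 1 left out together, chosen after seeing the data, it was 1, without a symbol. The 583 nominally higher IDs became 954 with DESeq2, 790 with the replicate block and 440 to 820 without single boars, and the 1158 nominally lower IDs became 1218, 1235 and 774 to 1257. The replicate numbers do not pair the boars, since 0 of 5 numbers joined boars that were each other's best match, and 1 low and 2 high boars correlated best with their own number in 1 direction, and the block gave 0 calls. For 73 described genes 1529 values were recomputed. Values of the 60 nominal genes were checked for direction and for their side of the adjusted threshold. Values of the other genes were checked only for lying within 1 SE of the main log2 fold change, whatever their sign. On these rules 1469 values stayed the same, and 52 values of 38 nominal genes passed the threshold with DESeq2 or the likelihood ratio test. A further 6 values, all of genes that were not nominal, moved by 1 SE or more. Among nominal genes 2 values reversed, both without low boar 3: RSAD2 at 0.19 (range without single boars -2.46 to 0.19) and CDH17 at 0.45 (range -4.16 to 0.45). Genes that were not nominal could change sign without being counted, as TNP1 did (-0.33 to 0.32 without single boars). The exact p was under 0.05 for 91 of 196 named genes. Among lists, the counts of ribosomal, cholesterol synthesis and interferon genes kept their direction in every setting run. Other lists, such as red cell and spermatogonia markers, had no nominally higher gene in any fit without a single boar. Of 14 list counts with at least 4 nominal genes, 5 stayed within 1.5 times without any single boar (vessel tone, chemokines, lymphocyte, red cell and epithelial markers). The red cell and epithelial counts fall to 1 and 2 lower genes without the study's own differential genes, which were chosen on these samples. The other 9 counts did not stay within 1.5 times (steroid and cholesterol synthesis, interferon, complement, matrix, ribosomal, mitochondrial, solute carrier and flagellum genes). Of 38 smaller counts, such as those of MHC, macrophage, Sertoli and hepatocyte genes, 32 did not. With 5 boars a group and 3 counts worth up to 0.487 CPM, values near or under that level rest on few counts, and genes without a matched ID were not analysed here.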
